A study of Mus musculus with 4 samples.

Results

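Long noncoding RNA (lncRNA) genes make transcripts that resemble messenger RNA but are not known to be translated. The deposited count table types 781 of its 13614 genes as lncRNA. The 763 of these on autosomes are described here, after 18 on chromosomes X and Y were left out. The cells were mouse fetal liver cells taken at embryonic day 14.5 to 16.5, transduced with a retrovirus (MSCV-MLL-AF9-IRES-GFP) that carries the MLL-AF9 fusion oncogene of acute leukemia, and sorted for GFP. The submitters define them as leukemia-initiating cells. There were 2 Prl2 knockout (Prl2-/-) libraries and 2 wild type (Prl2+/+) libraries. All 4 carried MLL-AF9. The series asks what differs in these cells without PRL2, a phosphatase encoded by Ptp4a2, and is titled for p53 signaling. The labels do not say whether the libraries of a genotype came from separate embryos or cultures. The p-values therefore measure the spread of these libraries alone.

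Some lncRNA genes act through their transcript, such as Neat1, the scaffold of nuclear paraspeckles. Others matter for what is cut out of them: snoRNA host genes carry small nucleolar RNAs in their introns, and the snoRNAs guide chemical modification of ribosomal RNA. The spliced host transcript is often short-lived, because translation of its short reading frames exposes it to nonsense-mediated decay. Many such hosts begin with a C followed by a run of C and T, the 5′ terminal oligopyrimidine start shared with ribosomal protein genes. In blood cells a few lncRNA genes have known roles, among them Morrbid, which in mouse represses the cell death gene Bcl2l11 in myeloid cells.

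The snoRNA hosts carry the pattern described below, so the first bases of several of them are shown. Each window is 80 bases of RefSeq sequence (GRCm38.p6), with 40 bases before the annotated start and 40 from the start on, read on the strand of the gene. Capitals mark TATAAA on either strand (TTTATA when read on the other) in the first 40 bases, and a run of 4 or more C or T that begins with C at the start base. Both features, and the genes and starts printed, were chosen after the sequences and values had been seen. Gas5 and 1110038B12Rik each have 2 RefSeq starts, and the one with the C and T run is printed. The printed starts of Gas5 and Snhg20 lie 744 and 775 bp inside the gene as counted.

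Gas5, chr1:161035126-161035205, plus strand: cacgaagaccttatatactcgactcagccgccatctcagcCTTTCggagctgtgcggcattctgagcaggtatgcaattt
Snhg8, chr3:123508297-123508376, minus strand: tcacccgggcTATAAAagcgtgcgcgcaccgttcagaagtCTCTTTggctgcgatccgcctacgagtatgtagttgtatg
Rab26os, chr17:24528211-24528290, plus strand: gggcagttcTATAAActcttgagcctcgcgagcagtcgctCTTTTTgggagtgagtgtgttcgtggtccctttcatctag
1110038B12Rik, chr17:34952429-34952508, minus strand: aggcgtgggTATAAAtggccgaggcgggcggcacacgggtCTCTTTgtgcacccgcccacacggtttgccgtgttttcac
2410006H16Rik, chr11:62602837-62602916, plus strand: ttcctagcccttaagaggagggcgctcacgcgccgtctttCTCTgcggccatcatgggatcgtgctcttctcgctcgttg
Snhg1, chr19:8723447-8723526, plus strand: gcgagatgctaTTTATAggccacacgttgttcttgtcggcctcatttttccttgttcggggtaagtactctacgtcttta
Snhg5, chr9:88522858-88522937, minus strand: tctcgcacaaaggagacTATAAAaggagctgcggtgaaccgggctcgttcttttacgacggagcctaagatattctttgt
Snhg20, chr11:117076743-117076822, plus strand: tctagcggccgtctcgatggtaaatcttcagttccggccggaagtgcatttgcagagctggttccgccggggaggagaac

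Of the 28 lncRNA genes with an annotated snoRNA inside, 22 matched a RefSeq start by symbol. The C and T run stood at a start of 5 of these 22 (22.7%), against 25 of 369 other matched autosomal lncRNA genes (6.78%), 388 of 9144 protein-coding genes of the table (4.24%) and 1214 of all 27025 genes with a window (4.49%). TATAAA lay before a start of 6 of the 22 (27.3%), against 4 of the 369 (1.08%), 161 of the 9144 (1.76%) and 980 of the 27025 (3.63%). A match describes the letters, not a working element, and annotated starts can be off by some bases. Snhg20, which has the smallest p of all members, holds neither feature at its RefSeq start.

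The snoRNAs themselves are printed for 4 of these hosts, from the GENCODE M21 transcripts (GRCm38), since they are what sets this class apart. Capitals mark the first TGATGA and the last CTGA, the core letters of the C and D boxes that define a C/D box snoRNA. Of 1507 snoRNA transcripts in GENCODE M21, 362 hold TGATGA followed by CTGA on their own strand.

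Snord47, inside Gas5, chr1:161038082-161038158, plus strand: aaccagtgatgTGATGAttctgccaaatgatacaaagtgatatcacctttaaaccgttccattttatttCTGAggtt
Snord60, inside Rab26os, chr17:24528476-24528553, plus strand: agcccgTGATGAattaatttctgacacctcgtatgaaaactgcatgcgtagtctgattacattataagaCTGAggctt
Snord87, inside Snhg6, chr1:9942463-9942549, minus strand: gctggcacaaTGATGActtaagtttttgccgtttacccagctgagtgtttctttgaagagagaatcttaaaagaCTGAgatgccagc
Snord49a, inside 2410006H16Rik, chr11:62603450-62603521, plus strand: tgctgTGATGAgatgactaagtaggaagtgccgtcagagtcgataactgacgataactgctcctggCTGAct

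The libraries held 15422309 and 15267768 counts in the Prl2 knockout and 14625725 and 14921313 in the wild type. Ptp4a2 had 89 and 104 counts in the knockout libraries against 4884 and 5105 in the wild type libraries, so the labels match the targeted gene (log2 fold change −5.72, edgeR quasi-likelihood adjusted p = 0.000429). The libraries of a genotype differed in other ways. Xist, the RNA that silences an X chromosome in female cells, had 3 and 12 counts in the knockout and 11147 and 9 in the wild type. The Y-linked Ddx3y had 1320 and 1173 counts in the knockout and 12 and 1271 in the wild type. The wild type libraries were thus not repeats of the same cells, while the knockout libraries may be. The granule protease gene Elane had 22419 and 9269 counts in the knockout and 14098 and 40340 in the wild type. Of 10 erythroid markers 5 were in the table, with a summed CPM (counts scaled to the library total and TMM factor) of 4.84 and 8.78 in the knockout and 27.3 and 14.8 in the wild type. For 8 myeloid progenitor markers, all of them in the table, the sums were 6679 and 4112 in the knockout and 5865 and 11966 in the wild type. For 3 of 8 B cell markers the sums were 309 and 363 in the knockout and 477 and 442 in the wild type, and for 2 of 6 macrophage markers they were 400.4 and 607 in the knockout and 384 and 359 in the wild type. Erythroid and B cell sums were lower, and macrophage sums higher, in both knockout libraries. All 5 erythroid and all 3 B cell markers had negative log2 fold changes, but the 2 macrophage markers split, with 1 negative. Of the 8 myeloid progenitor markers, 7 had negative log2 fold changes, with a median of −0.44, although their sums overlapped between genotypes. The sums of the megakaryocyte, T cell and endothelial lists overlapped between genotypes. None of the 6 hepatocyte markers was in the table. The part of these differences in the lncRNA results was not tested. In such bulk RNA, fewer cells of a type and less RNA per cell cannot be told apart.

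The 763 lncRNA genes took a small share of the reads, and that share was lower in the knockout. They held 0.518% and 0.525% of counts in the knockout libraries and 0.621% and 0.561% in the wild type libraries. The 95% Wilson intervals were 0.514% to 0.521% and 0.521% to 0.528% in the knockout, and 0.617% to 0.625% and 0.557% to 0.565% in the wild type. They cover counting error only. Both knockout libraries lay below both wild type libraries. The means were 0.521% ± 0.00482 in the knockout and 0.591% ± 0.0421 in the wild type (SD, n = 2 each). A two-sided exact permutation test gave p = 0.333, the smallest value that 2 against 2 libraries allow.

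Most members were rare. A mean of under 1 CPM was found for 200 of them, 1 to 10 CPM for 467, and 10 CPM or more for 96, of which 11 reached 100 CPM. The median member had 111 counts over the 4 libraries and the rarest had 28. Every gene of the table passed 0.5 CPM in at least 2 libraries, so the table had been filtered before deposit. Of the members, 13 were under that level in both knockout libraries and 4 in both wild type libraries. Such genes were listed only through the other genotype. Deposited lengths ran from 168 to 93092 bp, with a median of 2098 bp. By symbol, 363 were numbered gene models (Gm), 278 were RIKEN clones (Rik) and 122 had another name. GENCODE M21 holds 752 of the members by ID, all at the same coordinates, and types 274 of them as lincRNA, 256 as antisense and 149 as processed transcript.

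Across the genotypes the members leaned to lower values in the knockout, but none passed the test. The edgeR quasi-likelihood test, adjusted over all 13614 genes, called 0 members higher and 0 lower at an adjusted p of 0.05, where it called 0.0% of all genes higher and 0.00735% lower. The smallest adjusted p of a member was 0.474, shared by 21 members. At an unadjusted p under 0.05, 8 members were higher in the knockout, where 5.66% of all genes were, and 41 were lower, where 4.23% of all genes were. As shares of the members these are 1.05% higher and 5.37% lower. The limma-voom test also called 0 members. DESeq2 called 0 higher (0.338% of all genes) and 1 lower (0.338% of all genes). By the likelihood ratio test of edgeR, 2 members were lower (0.294% of all genes) and 0 higher (0.184%).

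The log2 fold change of knockout over wild type was negative for 499 of 763 members (65.4%), while it was negative for 50.9% of all genes. The median was −0.18 for the members, 0.0019 for the 11050 autosomal protein-coding genes and −0.0059 for all genes. Groups that do not overlap, with both knockout libraries on 1 side of both wild type libraries, were found for 79 members higher in the knockout (22.2% of all genes) and 231 lower (21.9% of all genes). Without wild type replicate 1 the share of negative values was 60.3%, and it lay between 63.4% and 65.0% without each of the others.

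**Figure D1:**
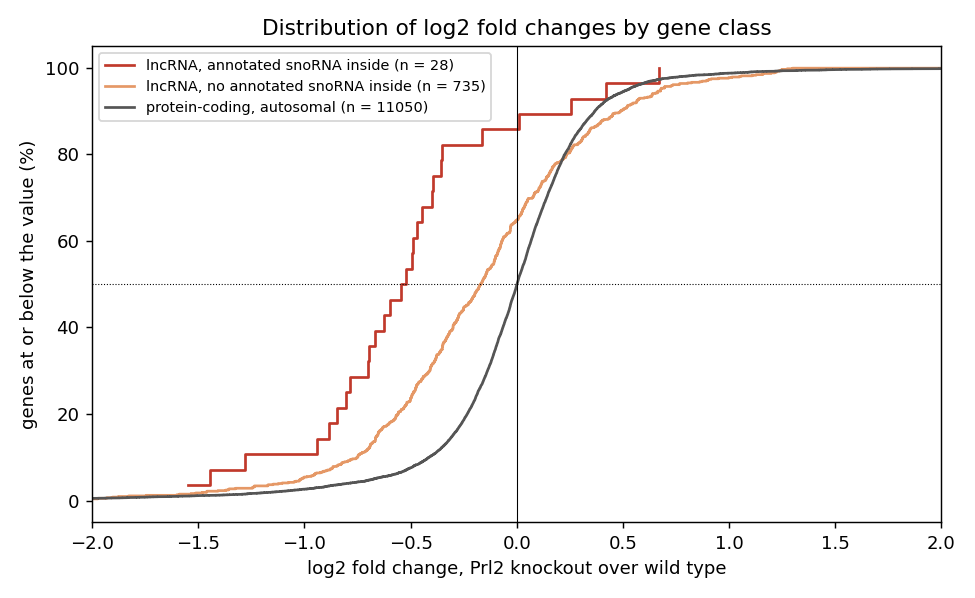
Cumulative distribution of log2 fold changes (x axis, Prl2 knockout over wild type) as the percent of genes at or below each value (y axis). The 28 lncRNA genes with an annotated snoRNA inside cross the dotted 50% line at −0.53, the other 735 lncRNA genes at −0.17, and the 11050 autosomal protein-coding genes near 0; the x axis ends at −2 and 2.

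The snoRNA host genes stood at the low end. The list of 15 (Gas5, Zfas1, Dancr, Epb41l4aos and each Snhg gene with a number) had 14 negative log2 fold changes and a median of −0.49. The list was chosen with earlier results of these data known, so the values given here describe it and are no independent test. Unadjusted p was under 0.05 for 8 of the 15, all lower in the knockout, where 4.23% of all genes were. In 12 both knockout libraries lay below both wild type libraries (21.9% of all genes), and in 1, Snhg10, both lay above (22.2% of all genes). The CPM of the 15 summed to 424 and 427 in the knockout libraries and 643 and 549 in the wild type libraries, or 426 ± 2.23 and 596 ± 66.4 (SD, n = 2 each). The groups did not overlap, and the exact permutation p was 0.333, the smallest possible. Leaving out wild type replicate 1 gave 14 negative values but 4 genes at an unadjusted p under 0.05, all 4 of them among the 8. Leaving out Prl2 knockout replicate 1 gave 5 genes at that p, with 3 of them among the 8.

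**Figure D2:**
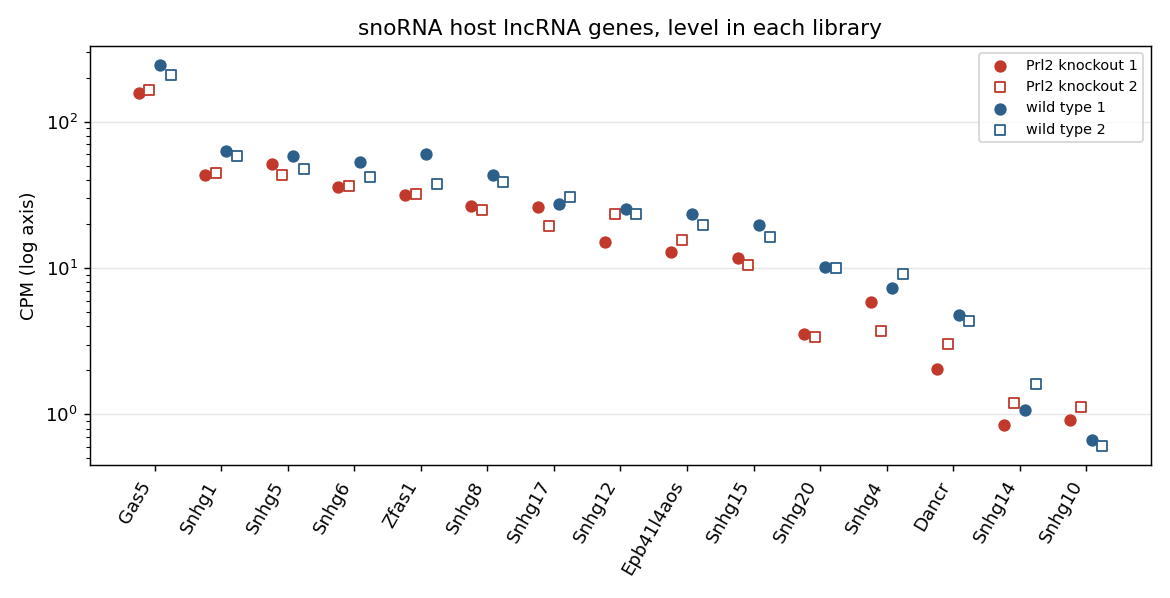
Level of each of the 15 listed snoRNA host genes in each library, in CPM on a log axis, ordered by mean level. Filled circles are replicate 1 and open squares replicate 2; red is the Prl2 knockout and blue the wild type, and in 12 of the 15 genes both red points lie below both blue points.

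Gas5 (growth arrest specific 5, chr1:161034422-161038539, mm10, plus strand) was the most abundant of them. It had 2397 and 2496 counts in the knockout and 3655 and 3101 in the wild type, which is 161 ± 5.67 and 227 ± 25.2 CPM (SD, n = 2 each). Both knockout libraries lay below both wild type libraries. Its log2 fold change was −0.49 (SE 0.119, 95% interval −0.79 to −0.20, adjusted p = 0.474). The annotation places 10 entries typed snoRNA inside it, among them Mir5117, which has a miRNA symbol, and a pair that share the symbol Snord80. The exons of Gas5 hold 3760 bp in 3 blocks and cover most of the gene. Reads of a snoRNA that lies in them cannot be told apart from those of the host transcript. Intervals here and below are not adjusted for the number of genes tested.

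Snhg1, the host of a cluster that includes Snord22, had 663 and 679 counts in the knockout and 945 and 873 in the wild type (log2 fold change −0.47, 95% interval −0.75 to −0.18). Snhg8, the host of Snora24, had 405 and 380 counts in the knockout and 647 and 575 in the wild type (log2 fold change −0.67, 95% interval −1.01 to −0.33). In both genes the spread within a genotype was small beside the gap between genotypes. The exons of Snhg1, and those of Snhg8, merge into 1 block that spans the whole gene. Reads from a snoRNA inside them therefore cannot be told apart from those of the host transcript. Snhg15, the host of Snora9, had 178 and 160 counts in the knockout and 294 and 244 in the wild type (log2 fold change −0.70, 95% interval −1.19 to −0.21). Epb41l4aos had 198 and 235 counts in the knockout and 349 and 293 in the wild type (log2 fold change −0.60, 95% interval −1.08 to −0.11). The groups did not overlap in either.

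Zfas1, on the opposite strand of Znfx1 and the host of Snord12, had 480 and 485 counts in the knockout and 906 and 554 in the wild type (log2 fold change −0.63, 95% interval −1.24 to −0.01). Snhg6, the host of Snord87 printed above, had 551 and 549 counts in the knockout and 800 and 619 in the wild type (log2 fold change −0.40, 95% interval −0.79 to −0.01). In both genes wild type replicate 1 was the highest library, while the knockout libraries were nearly equal. Without it the log2 fold changes were −0.25 and −0.22.

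Other hosts of the list differed less or varied more, and leaving out 1 library moved most of their values by over 1.5 times. Snhg5 had 784 and 654 counts in the knockout and 869 and 709 in the wild type, and the groups overlapped. Snhg12 had 229 and 354 counts in the knockout and 380 and 349 in the wild type, where knockout replicate 2 nearly reached the wild type in CPM (23.4 against 23.5 in wild type replicate 2). Snhg14 overlapped, at 13 and 18 counts in the knockout and 16 and 24 in the wild type. Snhg17, Snhg4 and Dancr did not overlap, with log2 fold changes of −0.36, −0.79 and −0.85 and standard errors of 0.195, 0.324 and 0.346. Without Prl2 knockout replicate 2, Snhg17 was at −0.16 and Snhg4 at −0.50, and without Prl2 knockout replicate 1, Snhg12 was at −0.06. Snhg10 was the sole host of the list with a positive value, at 14 and 17 counts in the knockout and 10 and 9 in the wild type (log2 fold change 0.67, 95% interval −0.52 to 1.86).

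Snhg20 (chr11:117076008-117078955, mm10, plus strand) differed most clearly. It had 54 and 51 counts in the knockout and 153 and 148 in the wild type, or 3.45 ± 0.117 and 10.1 ± 0.187 CPM (SD, n = 2 each). Each knockout library was far below each wild type library, and the libraries of a genotype were close. The log2 fold change was −1.55 (SE 0.245, 95% interval −2.15 to −0.94), with an adjusted p of 0.474 by the quasi-likelihood test. It passed in DESeq2 (adjusted p = 0.00771) and in the likelihood ratio test (adjusted p = 0.0178). The authors' deposited table holds the same adjusted p as the likelihood ratio test, so it is not a further test. Over the alternatives that kept every library, the adjusted p of Snhg20 lay between 0.00771 and 0.644. GENCODE M21 annotates a small Cajal body RNA, a relative of the snoRNAs, inside it. Its nearest protein-coding neighbour, Sec14l1, had a log2 fold change of 0.34. The exons of Snhg20 hold 2795 bp in 4 blocks and cover most of the gene, so reads of the small RNA inside may be counted with it.

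The name Snhg does not cover all hosts. Taking instead each lncRNA gene with an annotated snoRNA or small Cajal body RNA inside it on the same strand gave 28, a class chosen after the values had been seen, which includes all 15 of the list. Of the 28, 24 had negative log2 fold changes, with a median of −0.53. For 12 the unadjusted p was under 0.05, all of them lower in the knockout (4.23% of all genes). In 19 the groups did not overlap with the knockout lower (21.9% of all genes), and in 1 with it higher (22.2%). The other 735 members had a median of −0.17, with 29 at an unadjusted p under 0.05 lower (4.23% of all genes) and 8 higher (5.66% of all genes). The 29 lower are near that share of 735 genes, and the 8 higher are under theirs. Whichever library was left out, some of the 12 hosts were no longer at that p. Gas5 and Snhg1 were among them without Prl2 knockout replicate 1. The median of the 28 was −0.63 to −0.44 without 1 library. The annotation counts 4 entries with miRNA-type symbols (Mir) as snoRNAs in this class, and AI506816 and 2900076A07Rik are in it through such an entry alone. Negative values were also common among the 22 members with an annotated miRNA inside, with 18 negative, 4 positive and a median of −0.48. The 18 of them with no snoRNA inside had 15 negative values, 3 positive values and a median of −0.33.

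Protein-coding hosts did not lean this way. The 207 autosomal protein-coding genes with an annotated snoRNA inside had a median log2 fold change of 0.04, with 94 negative. Unadjusted p was under 0.05 for 18 higher (5.66% of all genes) and 18 lower (4.23% of all genes). They are unlike the 28 lncRNA hosts in length and level, with medians of 5279 bp and 82.5 CPM against 2170 bp and 10.3 CPM. Autosomal protein-coding genes above 5000 bp had a median log2 fold change of 0.08, hosts or not. The table also lists 26 snoRNA genes as rows of their own, which had a median of −0.37 with 24 negative and a median level of 0.973 CPM. These are short genes, and their own reads cannot be told apart from those of a host intron.

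Among the hosts outside the list, Rab26os (chr17:24528248-24528744, mm10, plus strand), the host of Snord60, had 30 and 31 counts in the knockout and 84 and 79 in the wild type. Both knockout libraries were far below both wild type libraries (log2 fold change −1.44, 95% interval −2.19 to −0.70). It starts divergently from Traf7, which had a log2 fold change of 0.0018. As in Snhg1 and Snhg8, the exons of Rab26os merge into 1 block that spans the gene, so reads of Snord60 cannot be told apart from those of Rab26os. 1810032O08Rik, which holds Snord1a, Snord1b and Snord1c, had 114 and 107 counts in the knockout and 196 and 220 in the wild type (log2 fold change −0.94, 95% interval −1.46 to −0.42). 2410006H16Rik, which holds Snord49a, Snord49b and Snord65, had 784 and 982 counts in the knockout and 1339 and 1089 in the wild type (log2 fold change −0.49, 95% interval −0.90 to −0.07). The groups did not overlap in either gene. 1110038B12Rik, the host of Snord52, had 424 and 338 counts in the knockout and 689 and 399 in the wild type. There the upper knockout library lay above the lower wild type library, and the log2 fold change of −0.54 (SE 0.288) was −0.11 without wild type replicate 1.

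Of 10 members named for the smallest p among those lower in the knockout, 6 hold an annotated snoRNA (Snhg20, Snhg8, Rab26os, 1810032O08Rik, Gas5 and Snhg1). The other 4 do not. 1810026B05Rik, which lies over Chd2 on the same strand, had 1304 and 1019 counts in the knockout and 1790 and 1756 in the wild type (log2 fold change −0.64, 95% interval −0.99 to −0.29). Chd2, a chromatin remodeller gene, had a log2 fold change of 0.06. Of the 8620 bp of 1810026B05Rik, 2628 bp are exon bases shared with Chd2, and reads from those bases cannot be told apart. AI662270 had 2010 and 1982 counts in the knockout and 2538 and 2643 in the wild type (log2 fold change −0.41, 95% interval −0.65 to −0.17). I730030J21Rik had 4 and 7 counts in the knockout and 21 and 33 in the wild type, and Gm28192 had 8 and 6 in the knockout and 29 and 22 in the wild type. These are low counts, and the 95% intervals of their log2 fold changes run from −3.68 to −0.92 and from −3.08 to −0.68. I730030J21Rik was under 0.5 CPM in both knockout libraries, so it was listed only through the wild type and its direction was set by the filter.

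**Figure D3:**
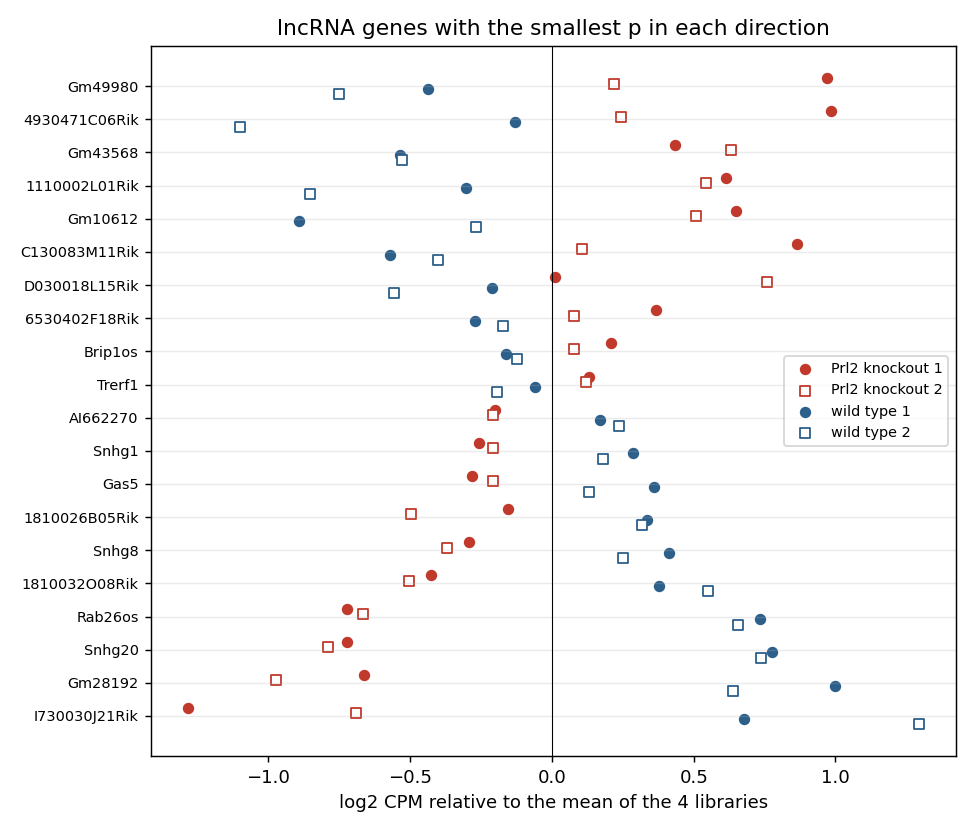
The 10 members per direction with the smallest unadjusted p among those with non-overlapping groups and a mean log2 CPM of 0 or more, each library shown as log2 CPM relative to the mean of the 4 libraries (x axis). Circles are replicate 1, squares replicate 2; red is the Prl2 knockout and blue the wild type. The groups were required not to overlap, so the separation of the colours follows from the choice of genes, and the size of the gap and the spread within a colour are what the plot adds.

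Gm10451 (chr12:76444497-76451336, mm10, plus strand) was at 0 in both knockout libraries and had 22 and 12 counts in the wild type. Against a floor of 3 counts per library it was at least 5.78-fold lower in the knockout. Like the other members under 0.5 CPM in both knockout libraries, it was listed only through the wild type, so its direction was set by that filter. It passed in the likelihood ratio test (adjusted p = 0.000167), and the authors' deposited table holds the same adjusted p, so it is not a further test. Gm10451 did not pass in the quasi-likelihood test (adjusted p = 0.474). Over the alternatives that kept every library, its adjusted p lay between 0.000167 and 0.644. It was the sole member at 0 in both libraries of a genotype. The authors' deposited table called 2 members lower, Gm10451 and Snhg20 (0.294% of all genes), and 0 higher (0.184% of all genes).

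Members higher in the knockout were fewer and led by genes without a known role. Gm49980, within 10 kb of Pik3c3, had 429 and 252 counts in the knockout and 157 and 125 in the wild type (log2 fold change 1.24, 95% interval 0.49 to 1.99). Gm10612, antisense to Cbfa2t3, had 105 and 94 counts in the knockout and 34 and 53 in the wild type (log2 fold change 1.16, 95% interval 0.33 to 1.99). Cbfa2t3, a corepressor gene of blood progenitors, had a log2 fold change of 0.17. 1110002L01Rik had 52 and 49 counts in the knockout and 26 and 17 in the wild type (log2 fold change 1.20, 95% interval 0.24 to 2.16). Brip1os had the narrowest error among them, at 2462 and 2231 counts in the knockout and 1863 and 1903 in the wild type (log2 fold change 0.29, 95% interval 0.03 to 0.54). C130083M11Rik, 4930471C06Rik, Gm43568 and 6530402F18Rik were also under an unadjusted p of 0.05, with log2 fold changes of 1.06, 1.22, 1.22 and 0.45 and standard errors of 0.388, 0.451, 0.456 and 0.169. D030018L15Rik and Trerf1 completed the 10 named, with log2 fold changes of 0.82 and 0.25 and standard errors of 0.351 and 0.111. The adjusted p was between 0.474 and 0.523 for these 10. Of them, 5 moved by over 1.5 times without 1 library. Gm49980 was at 0.81, 4930471C06Rik at 0.80, C130083M11Rik at 0.62 and 6530402F18Rik at 0.30 without Prl2 knockout replicate 1, and D030018L15Rik was at 0.39 without Prl2 knockout replicate 2. 4930471C06Rik was also at 0.80 without wild type replicate 2.

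The most abundant members mostly differed little. The 8 with the highest mean CPM held 23.5% of all counts on members. Besides Gas5, AI662270 and Brip1os these were Gm26917, 1700020I14Rik, 1700006J14Rik, Tug1 and Gm15564. 1700020I14Rik had 3133 and 2945 counts in the knockout and 2628 and 2543 in the wild type (log2 fold change 0.20, 95% interval −0.04 to 0.45). 1700006J14Rik had 2545 and 3075 counts in the knockout and 2411 and 2038 in the wild type (log2 fold change 0.31, 95% interval −0.05 to 0.67). The groups did not overlap in either, and both were higher in the knockout libraries. 1700006J14Rik was at 0.16 without Prl2 knockout replicate 2 and at 0.19 without wild type replicate 2. Gm26917 had 1270 and 4471 counts in the knockout and 2826 and 3064 in the wild type, so the knockout libraries stood on both sides of the wild type. Per length, the highest level was that of Gm15564, at 156 CPM per kb of deposited length, followed by 2410006H16Rik at 151 and Ifi30 at 127. Ifi30, Tmem134, Trerf1 and Zswim6 are symbols of known protein-coding genes, although the table types these rows as lncRNA.

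**Figure D4:**
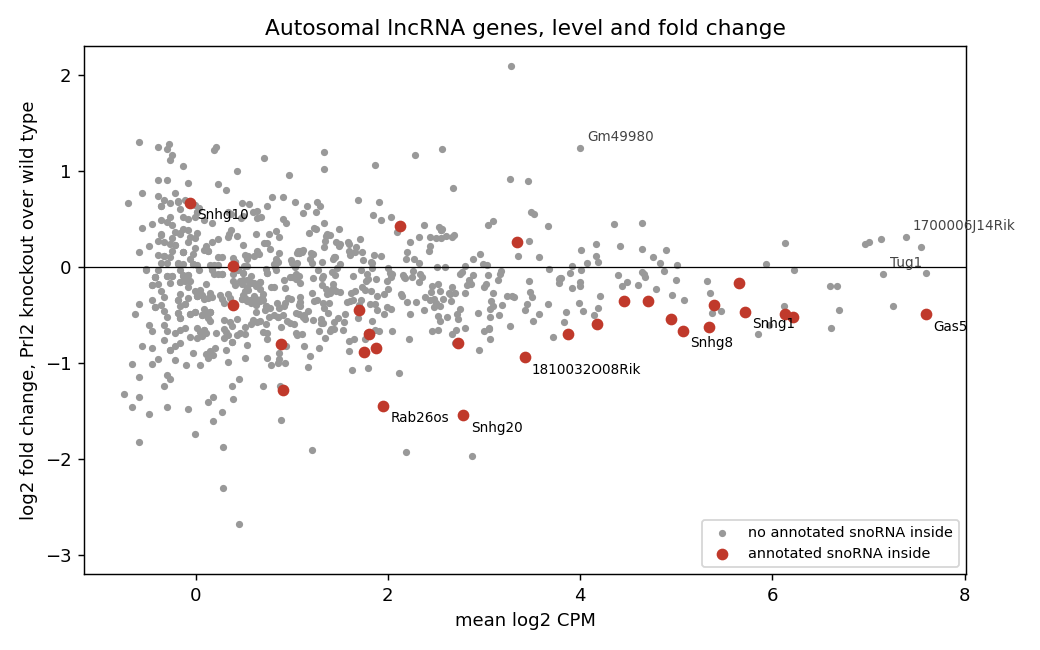
Log2 fold change of Prl2 knockout over wild type (y axis) against mean log2 CPM (x axis) for the autosomal lncRNA genes; Gm10451, at 0 in both knockout libraries, is not drawn. The 28 genes with an annotated snoRNA inside (red) lie below 0 in 24 cases across the range of levels, and the scatter of the others (grey) widens at low levels.

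Lists of lncRNA genes with known roles were short, and in most of them single libraries set the value. The 4 microRNA host genes all had negative log2 fold changes, with a median of −0.68. Mir17hg, the precursor of the miR-17-92 cluster, had 108 and 56 counts in the knockout and 221 and 73 in the wild type. Mir142hg, the precursor of the blood cell microRNA miR-142, had 138 and 91 counts in the knockout and 248 and 96 in the wild type. In both genes wild type replicate 1 stood above the other 3 libraries, and without it the log2 fold changes were 0.12 and 0.21. Dleu2, which carries miR-15a and miR-16-1, had 134 and 87 counts in the knockout and 140 and 136 in the wild type. Mir22hg had 25 and 30 in the knockout and 48 and 42 in the wild type (log2 fold change −0.74, 95% interval −1.62 to 0.14), and the groups of this gene did not overlap.

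Of the lncRNA genes linked to p53 in the literature, 3 were among the members: Gas5, Tug1 and Neat1. Tug1, a p53 target in human and mouse cells, had 2329 and 1868 counts in the knockout and 2293 and 2044 in the wild type, with overlapping groups (log2 fold change −0.08, SE 0.138, 95% interval −0.42 to 0.26). Neat1 had 703 and 631 counts in the knockout and 1472 and 645 in the wild type. Its log2 fold change of −0.69 rested on wild type replicate 1 and was 0.0014 without it. Trp53cor1 (lincRNA-p21), Pvt1, Lncpint and Meg3 were not among the members. Malat1, the abundant RNA of nuclear speckles, had 1753 and 1134 counts in the knockout and 1615 and 1630 in the wild type, and the groups overlapped.

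In the Hox clusters, 3 members were measured, all in the Hoxa cluster, which MLL fusions are known to keep active. Hoxaas2 (chr6:52165674-52169564, mm10, plus strand) had 18 and 27 counts in the knockout and 47 and 37 in the wild type (log2 fold change −0.93, 95% interval −1.93 to 0.08). It shares 503 bp of exons with Hoxa3 on the other strand. Hoxa3 had 327 and 327 counts in the knockout and 634 and 569 in the wild type (log2 fold change −0.91, SE 0.138, adjusted p = 0.474). In both genes the knockout libraries lay below the wild type libraries, and since the strand setting of the counting is not given in the sources used here, their reads cannot be told apart. Hoxaas3 had 35 and 31 counts in the knockout and 55 and 29 in the wild type, and Gm15050 had 15 and 6 in the knockout and 15 and 12 in the wild type, with overlap in both.

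Among blood and immune lncRNA genes, 6 were measured, with 4 negative values and a median log2 fold change of −0.32. Morrbid had 266 and 374 counts in the knockout and 318 and 382 in the wild type, with overlapping groups, and its target in myeloid cells, Bcl2l11, had a log2 fold change of −0.26 (SE 0.152). Lockd, which lies next to the cell cycle inhibitor gene Cdkn1b, had 209 and 155 counts in the knockout and 264 and 231 in the wild type (log2 fold change −0.47, 95% interval −1.03 to 0.08). Mirt1 had 476 and 506 counts in the knockout and 526 and 422 in the wild type. The 3 imprinted lncRNA genes were Peg13, Kcnq1ot1 and Snhg14. Peg13, which lies within Trappc9, had 910 and 965 counts in the knockout and 800 and 1004 in the wild type (log2 fold change 0.03, SE 0.149). Kcnq1ot1, the longest member, had 73 and 67 counts in the knockout and 75 and 78 in the wild type, and its level was 0.0523 CPM per kb.

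Genes named as opposite strand (os) numbered 37, of which 22 had negative log2 fold changes, with a median of −0.10. Unadjusted p was under 0.05 for 1 higher (Brip1os, where 5.66% of all genes were) and 2 lower (Rab26os and Epb41l4aos, where 4.23% were). Groups did not overlap for 7 higher (22.2% of all genes) and 12 lower (21.9%). The 2 lower and the 7 higher are near those shares of 37 genes. Cep83os had 352 and 340 counts in the knockout and 261 and 323 in the wild type (log2 fold change 0.21, and 0.05 without wild type replicate 1). Rab10os had 439 and 517 counts in the knockout and 554 and 276 in the wild type, so that the wild type libraries stood on both sides of the knockout.

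By position against the protein-coding genes of the table, 345 members overlap one on the other strand, and 293 of these share exon bases with it. Another 118 start divergently within 2 kb, 37 overlap on the same strand, 110 lie elsewhere within 10 kb and 153 lie farther away. The median log2 fold change was negative in each class, from −0.10 for divergent members and −0.16 for those elsewhere within 10 kb to −0.19 for farther members, −0.20 for antisense members and −0.33 for sense members. The median of the protein-coding neighbours was 0.06 for antisense, 0.07 for divergent and −0.01 for farther pairs. The protein-coding neighbours of antisense and divergent members thus had medians above 0.

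Across pairs, the fold change of a member and that of its neighbour were weakly related. Pearson's r was 0.22 and Spearman's rho 0.19 over the 345 antisense pairs, 0.21 and 0.30 over the 118 divergent pairs, and −0.01 and 0.05 over the 153 farther pairs. These are correlations across genes, which are not independent replicates, and both genes of a pair come from the same 4 libraries. For the 293 antisense pairs that share exon bases, reads from those bases cannot be told apart without a strand setting, and there r was 0.22 and rho 0.16. The 52 antisense pairs with no shared exon bases had r of 0.18 and rho of 0.34, with the same sign in 36. N4bp2os and N4bp2, which share 337 bp of exons, had log2 fold changes of 0.63 and 0.62. Junos and Jun, which share 232 bp, had 0.15 and 1.18, and Rab26os and Traf7 had −1.44 and 0.0018.

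**Figure D5:**
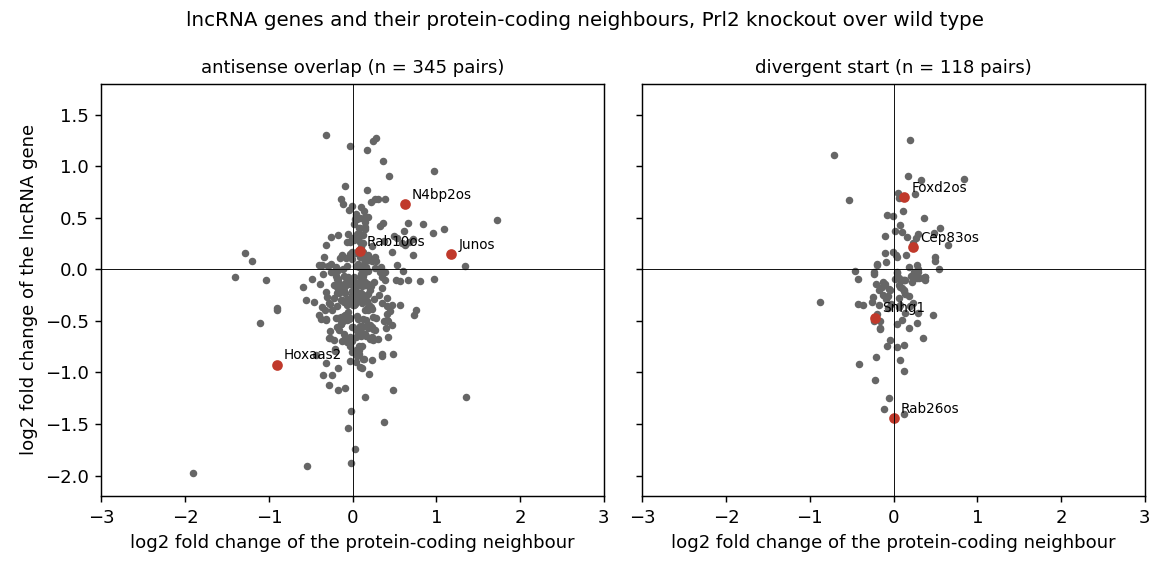
Log2 fold change of each lncRNA gene (y axis) against that of its protein-coding neighbour (x axis), Prl2 knockout over wild type, for 345 antisense and 118 divergent pairs. The clouds are wide and only slightly tilted, and pairs named in red include ones with like values (Hoxaas2) and ones where a single partner is far from 0 (Rab26os, Junos).

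Gene length went with the fold change in all genes, and the members are short. Among members of up to 1000 bp the median log2 fold change was −0.26, and among protein-coding genes of that length it was −0.21. From 1000 to 2000 bp the medians were −0.19 for members and −0.14 for protein-coding genes, from 2000 to 3000 bp −0.21 and −0.06, from 3000 to 5000 bp −0.18 and −0.02, and above 5000 bp −0.07 and 0.08. The members' median was the lower one in all 5 length classes, but the share of negative values was not the higher one in the shortest. Up to 1000 bp, 67.5% of members and 76.5% of protein-coding genes were negative, and from 1000 to 2000 bp 67.0% of members and 71.3% of protein-coding genes were. Above 5000 bp the shares were 57.1% of members and 37.2% of protein-coding genes. With each library's trend on length removed, the median of the members was −0.14, and that of the 28 hosts was −0.51. Members made of 1 exon block had a median of −0.30 (145 genes, 113 negative), against −0.16 for those of 2 or more (618 genes, 386 negative). By level, the median was −0.16 in the 66 members with a mean log2 CPM above 4, where protein-coding genes had 0.03. Among genes with a mean log2 CPM of up to 0 the order turned, with a median of −0.09 in 153 members (54.9% negative) and −0.29 in protein-coding genes (66.8% negative).

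The spread between libraries of a genotype was wide for lncRNA genes. The median absolute log2 difference between replicates was 0.38 in the knockout and 0.41 in the wild type for members, against 0.16 in the knockout and 0.20 in the wild type for autosomal protein-coding genes. It was over 1 for 13.8% of members in the knockout and 15.5% in the wild type, and for 5.45% of protein-coding genes in the knockout and 6.98% in the wild type. Some members were set apart by a single library. AI506816 had 1793 and 71 counts in the knockout and 1340 and 1271 in the wild type, so that knockout replicate 2 alone was low. 2610035D17Rik had 56 and 0 counts in the knockout and 90 and 119 in the wild type. Gm43305 had 175 and 295 counts in the knockout and 1 and 107 in the wild type, and D630033O11Rik had 73 and 179 in the knockout and 250 and 23 in the wild type.

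Counting members whose log2 CPM in 1 library was over 1 beyond all the other 3 shows where these lie. Knockout replicate 1 was above in 4 and below in 13, and knockout replicate 2 was above in 1 and below in 23. Wild type replicate 1 was above in 8 and below in 8, and wild type replicate 2 above in 2 and below in 15. Members below in 1 library were 1.70%, 3.01%, 1.05% and 1.97% of the list, against 1.04%, 0.933%, 0.514% and 1.30% of all genes, for knockout replicates 1 and 2 and wild type replicates 1 and 2. Members above in 1 library were 0.524%, 0.131%, 1.05% and 0.262%, against 0.176%, 0.551%, 1.06% and 0.375% of all genes, in the same 4 libraries. AI506816 stands out for its level, but it is uncertain as a single gene: its start window and that of 2700038G22Rik, another host on chromosome 5, are identical at 77 of 79 bases (97.5%), so reads near the start may be shared between them. D130058E05Rik, with 9 and 80 counts in the knockout and 177 and 167 in the wild type, overlaps Gbx2, a homeobox gene with a log2 fold change of −1.91, by 946 bp of exons on the other strand.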

How the data were processed

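RNA-seq was made from total RNA of 4 libraries. The authors deposited raw read counts, 1 whole number for each gene in each library. The mm10 genome, featureCounts, STAR and Bowtie2 are named in the submitters' processing notes, without versions, roles or a strand setting. The authors' deposited table also holds a log2 fold change and p-values (raw and adjusted) for knockout against wild type, per the file headers, and a gene length.

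Counts were tested with the edgeR 4.0.16 quasi-likelihood test (robust, TMM factors, genotype as the single term) in R 4.3.3 over all 13614 genes, all of which passed filterByExpr. Benjamini-Hochberg adjustment ran over all genes, p-values are two-sided, and the threshold for a call was an adjusted p of 0.05. The script was tested on simulated data. DESeq2 1.42.0, limma 3.58.1 (voom) and other settings were alternatives. The standard error is the log2 fold change divided by the root of F. Log2 CPM used a prior count of 2. Library totals lie between 14625725 and 15422309 counts; replicates differed by more than sampling noise (chi-square per gene 18.7 in the knockout and 33.8 in the wild type). Replicate numbers are those of the titles.

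Members and lists were chosen with earlier results of these data known. Named genes were the 8 most abundant, up to 10 per direction by unadjusted p among those whose groups did not overlap and whose mean log2 CPM was at least 0, those called by another tool or the deposited table, and up to 3 per list; the other genes and neighbours named were chosen after their values were seen. Positions, snoRNA content and exon overlaps come from the table's coordinates and GENCODE M21.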

Additional observations from a re-analysis of the deposited data

How the results depend on the processing

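Of 43 named genes, 31 kept the sign of their log2 fold change in every setting and 12 did not. The count of members called lower was 0, but 1 with DESeq2 and 2 with the likelihood ratio test; called higher, it was 0 in every setting. Members at an unadjusted p under 0.05 numbered 8 higher and 41 lower; DESeq2 gave 4 and 26, the replicate block 4 and 29, and leaving out 1 library 4 to 16 higher and 22 to 45 lower. The median log2 fold change of members was −0.18, or −0.14 with the length trend removed, and leaving out 1 library gave −0.23 to −0.16. The host list median was −0.63 to −0.44 without 1 library. Values changed sign without 1 library for Neat1 (−1.17 to 0.0014), Mir17hg (−1.46 to 0.12), Mir142hg (−1.15 to 0.21), Malat1 (−0.54 to 0.0748), Hoxaas3 (−0.77 to 0.14), Morrbid (−0.43 to 0.0721), Gm15050 (−1.18 to 0.11), Tug1 (−0.24 to 0.0665), Rab10os (−0.24 to 0.75), Peg13 (−0.14 to 0.20), Mirt1 (−0.13 to 0.17) and Gm26917 (−1.25 to 0.58). Mirt1 was −0.0053 with library totals and −0.0784 with the length trend removed. The cause was not tested. Sample numbers are not stated to pair the libraries. Deviations of same-numbered libraries correlated at −0.14 over all genes, which with 2 libraries per genotype cannot show whether they do. The crossed pairing, added after seeing the data, gave 11 higher and 37 lower at an unadjusted p under 0.05. The median member had 111 counts over the 4 libraries, and depth limits the precision of the rare ones.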
